A study of Bos taurus with 6 samples.

Results

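bta-miR-103 and bta-miR-107 are the cattle members of a closely related pair of miRNAs, and their levels in liver were compared between grass-fed and grain-fed steers. They were taken by name, as the rows of each deposited table whose mature miRNA was one of the 2. This gave 2 of the 1030 mature miRNAs listed, with 3 of the 1207 rows that pair a mature miRNA with a precursor. Both passed the filter on low counts that the study describes, a count above 2 in at least 2 individuals, which left 456 miRNAs. The 6 libraries came from the livers of 6 Wye Angus steers of one closed herd, 1 library per animal. The grass-fed group was raised on alfalfa, hay or pasture and sampled at 21 months, and the grain-fed group was raised on corn silage, shelled corn, soybean and minerals and sampled at 14 months, with 3 animals each. Diet, age and the depth of the libraries separate the animals in the same way and cannot be told apart.

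The miRNAs miR-103 and miR-107 lie inside genes of the pantothenate kinase family, whose enzymes carry out the first step of coenzyme A synthesis. They share the same seed, the stretch near the 5′ end that pairs with target mRNAs, and their mature sequences differ only near the 3′ end. In mouse liver and fat they are known for lowering insulin sensitivity, with caveolin-1, a partner of the insulin receptor, among their targets. They are counted in a wider miR-15 and miR-107 group that shares a short core at the 5′ end and holds many regulators of the cell cycle.

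The 3 precursors were placed by name in RefSeq's gene table, whose assembly, ARS-UCD2.0, is later than the ARS-UCD1.2 assembly used for mapping. In that table bta-mir-107 overlaps PANK1, bta-mir-103-2 overlaps PANK2 and bta-mir-103-1 overlaps PANK3. The table gives neither exons nor strand. Of the 1064 precursors listed, 1032 matched it by name.

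A mature miRNA of the same sequence from either bta-mir-103 precursor cannot be assigned to one of them. The deposited counts show this directly. The entry of bta-mir-103-1 held 15121, 11093 and 12927 counts in grass-fed replicates 1, 2 and 3, beside 15204, 11131 and 13005 for bta-mir-103-2. The grain-fed animals, in the same order, held 1704, 1522 and 1355 for bta-mir-103-1 and 1712, 1524 and 1355 for bta-mir-103-2. The difference was between 0 and 83 reads, at most 0.600% of the larger count, so nearly every read was listed under both. The level of bta-miR-103 therefore cannot be split between the PANK2 and PANK3 loci, and the larger of the 2 counts was used in each library.

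Reads of bta-miR-103 and bta-miR-107 that end before their difference fit both miRNAs, and the files do not say how many were counted for both. Their number cannot exceed the count of bta-miR-107. This count was between 15.7% and 26.7% of that of bta-miR-103 in the 6 libraries, which bounds the shared part of bta-miR-103. For bta-miR-107 no such limit exists, and its values may include reads of bta-miR-103.

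The grass-fed libraries held 3824592 to 6133960 miRNA counts and the grain-fed libraries 464875 to 892929. Libraries were scaled with the TMM method of edgeR, which gave the grass-fed libraries factors of 0.936, 0.692 and 0.996 and the grain-fed libraries factors of 1.15, 1.11 and 1.21. Here and below, values per animal stand in the order of replicates 1, 2 and 3. The low factor of grass-fed replicate 2 raises every scaled value of that library. bta-miR-122, the miRNA that marks hepatocytes, made up 26.2% to 31.7% of the grass-fed and 14.9% to 21.6% of the grain-fed counts. Among the markers of hepatocytes (bta-miR-122, bta-miR-192, bta-miR-194 and bta-miR-148a), bta-miR-122 and bta-miR-192 were higher in the grass-fed group at FDR 0.1, and the summed level of the 4 was 516583 to 820655 CPM (the count relative to the scaled size of its library) with grass and 328175 to 389843 CPM with grain. Most of that sum is bta-miR-122 and bta-miR-148a. bta-miR-194 lay the other way, at -0.43 on the log2 scale (FDR = 0.30, edgeR), and was not called. Over all 456 miRNAs, 19.1% were called in either direction. Markers of erythroid cells (0 of 3), leukocytes (0 of 5, summed level 743 to 993 CPM with grass and 943 to 1132 CPM with grain) and skeletal muscle (0 of 2 tested) were not called, and in biliary epithelium bta-miR-200b was higher and bta-miR-141 lower. Of the pancreas markers, 3 of 4 were lower in the grass-fed group, although the summed level of the list overlapped between groups, at 32.3 to 36.0 CPM in grass-fed and 14.2 to 136 CPM in grain-fed liver, and 3 of them were at 0 in grain-fed replicate 3. The part of pancreas or other cell types in the values of the 2 members was not tested.

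bta-miR-103 was an abundant liver miRNA and took 0.181% to 0.340% of the counts of a library. With 2578 CPM over the 6 libraries it had rank 28 of the 456 miRNAs tested, and within libraries its rank was between 26 and 36. After TMM scaling the counts given above came to 3201, 2623 and 3413 CPM for the grass-fed animals, against 1667, 2158 and 2404 CPM for the grain-fed animals. The lowest grass-fed animal, replicate 2, was above the highest grain-fed animal, replicate 3, so the groups did not overlap. The exact Poisson intervals of these 2 libraries, which cover counting error only, were 2575 to 2672 and 2277 to 2535 CPM. The same order is not found when libraries are scaled by total count alone. There grass-fed replicate 2, with 1815 CPM, was the lowest of all 6 animals, and grain-fed replicate 3, with 2915 CPM, lay close to grass-fed replicate 1, with 2995 CPM.

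After TMM scaling bta-miR-103 averaged 3079 ± 409 CPM over the grass-fed animals, against 2076 ± 375 CPM over the grain-fed animals (mean ± SD, n = 3 per diet). The log2 fold change, grass-fed over grain-fed, was 0.57 with a standard error of 0.21 and a 95% interval from 0.11 to 1.03. In the quasi-likelihood test of edgeR with Benjamini-Hochberg adjustment this gave FDR = 0.103, so bta-miR-103 did not pass the threshold of 0.1 set by the study. The threshold lay next to it. Of the 456 miRNAs tested, 87 (19.1%) passed and 43 (9.43%) passed with a higher level in the grass-fed group. By p, bta-miR-103 had rank 88. These counts hold for TMM scaling, with 43 higher and 44 lower, and with total count alone 9 were higher and 65 lower. The paper, also at FDR 0.1, reported many more miRNAs lower than higher in the grass-fed group. In bulk liver a change in the number of cells of one type and a change in the RNA of each cell cannot be told apart.

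bta-miR-107 was lower than bta-miR-103 in every library, with rank 76 of 456 and 492 CPM over the 6 libraries. The grass-fed libraries held 2394, 2590 and 2188 counts of it, the grain-fed libraries 457, 293 and 228. After TMM scaling it had 504, 610 and 574 CPM with grass and 445, 415 and 404 CPM with grain. Here too the groups did not overlap. The gap between grass-fed replicate 1 and grain-fed replicate 1 was small, and their counting intervals, 484 to 525 and 405 to 488 CPM, overlapped. With total count alone the levels were 472, 422 and 572 CPM with grass and 512, 461 and 490 CPM with grain, and the grain-fed animals lay within the grass-fed range.

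Its TMM-scaled mean was 563 ± 54.1 CPM with grass and 421 ± 21.1 CPM with grain (mean ± SD, n = 3 per diet). Its log2 fold change was 0.42 with a standard error of 0.20 and a 95% interval from -0.03 to 0.86, and FDR was 0.212 in the same edgeR test. It was not called. Both members, 2 of 2, had grass-fed values that lay wholly above the grain-fed values, as had 19.7% of all miRNAs tested. An exact two-sided permutation test of either mean gave p = 0.1, the smallest value that 3 animals against 3 allow, and with total count alone p = 0.7 for bta-miR-103 and 1 for bta-miR-107.

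**Figure D1:**
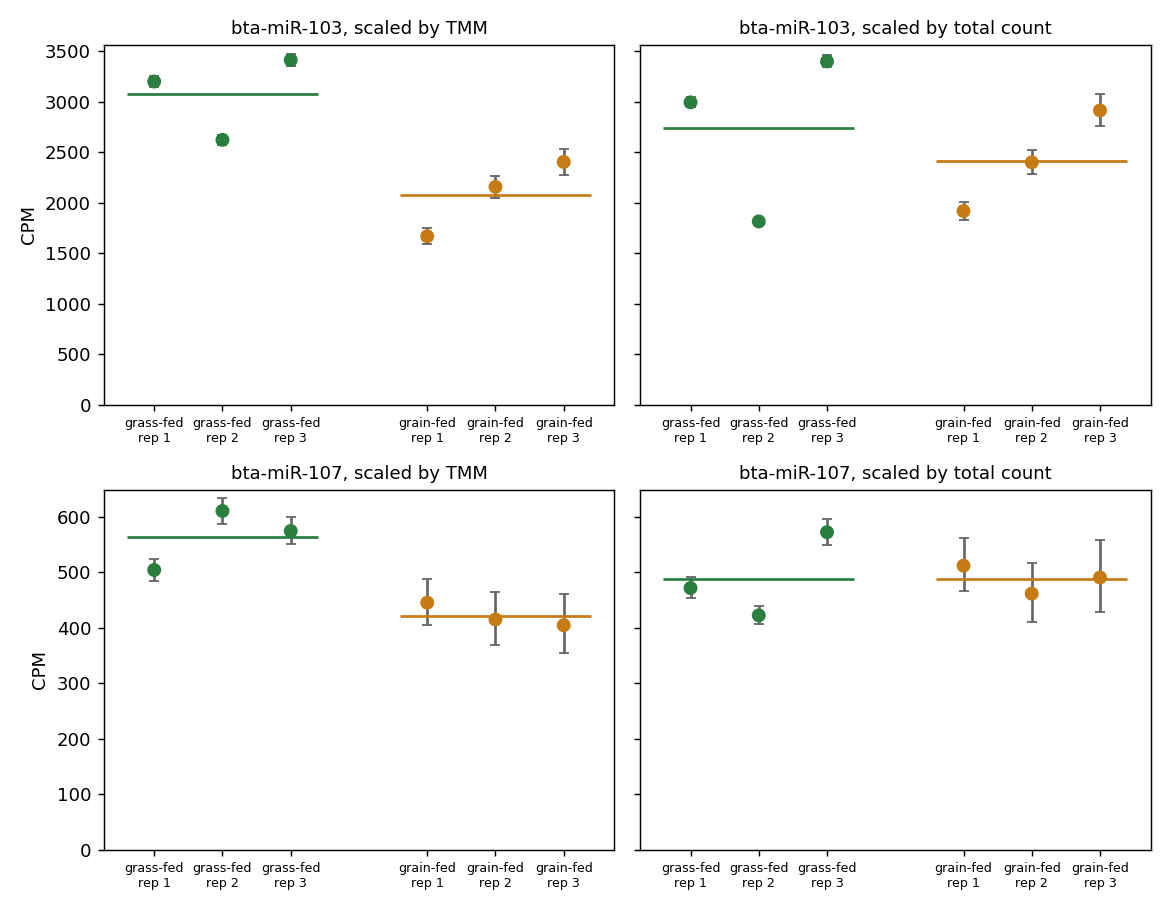
CPM of bta-miR-103 (top) and bta-miR-107 (bottom) in each liver library, scaled by TMM (left) or by total count (right). Points are single animals, bars are 95% Poisson intervals of the count, and lines are group means; after TMM scaling each grass-fed point lies above each grain-fed point, and by total count the groups overlap.

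The spread between animals was moderate. On the log2 CPM scale the SD of bta-miR-103 was 0.20 in grass-fed and 0.27 in grain-fed liver, and that of bta-miR-107 was 0.14 and 0.07. Over the 133 miRNAs with at least 100 CPM, the median SD was 0.29 in grass-fed and 0.22 in grain-fed liver. bta-miR-107 was thus less variable than the median miRNA of this range in both groups.

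How far the members differ between the diets depended on the scaling. With total count alone bta-miR-103 was at 0.18 on the log2 scale (FDR = 0.716, edgeR) and bta-miR-107 at 0.0005 (FDR = 0.999, edgeR). With upper-quartile normalization they were at 0.78 (FDR = 0.0332, edgeR) and 0.60 (FDR = 0.0434, edgeR), and both were called. The scaling moves all miRNAs together, and the median log2 fold change of the 456 was 0.13 with TMM, -0.29 with total count and 0.31 with upper-quartile normalization. Relative to that median, bta-miR-103 was higher by 0.44, 0.47 and 0.46 and bta-miR-107 by 0.28, 0.29 and 0.29 in the same order. In these 3 scalings, 71.5% to 73.9% of all miRNAs had a smaller log2 fold change than bta-miR-103 and 63.6% to 63.8% a smaller one than bta-miR-107. That the place of both members among the other miRNAs was nearly the same in each scaling follows from this joint shift. It does not tell which zero point is right, and so does not bear on a difference between the diets.

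**Figure D2:**
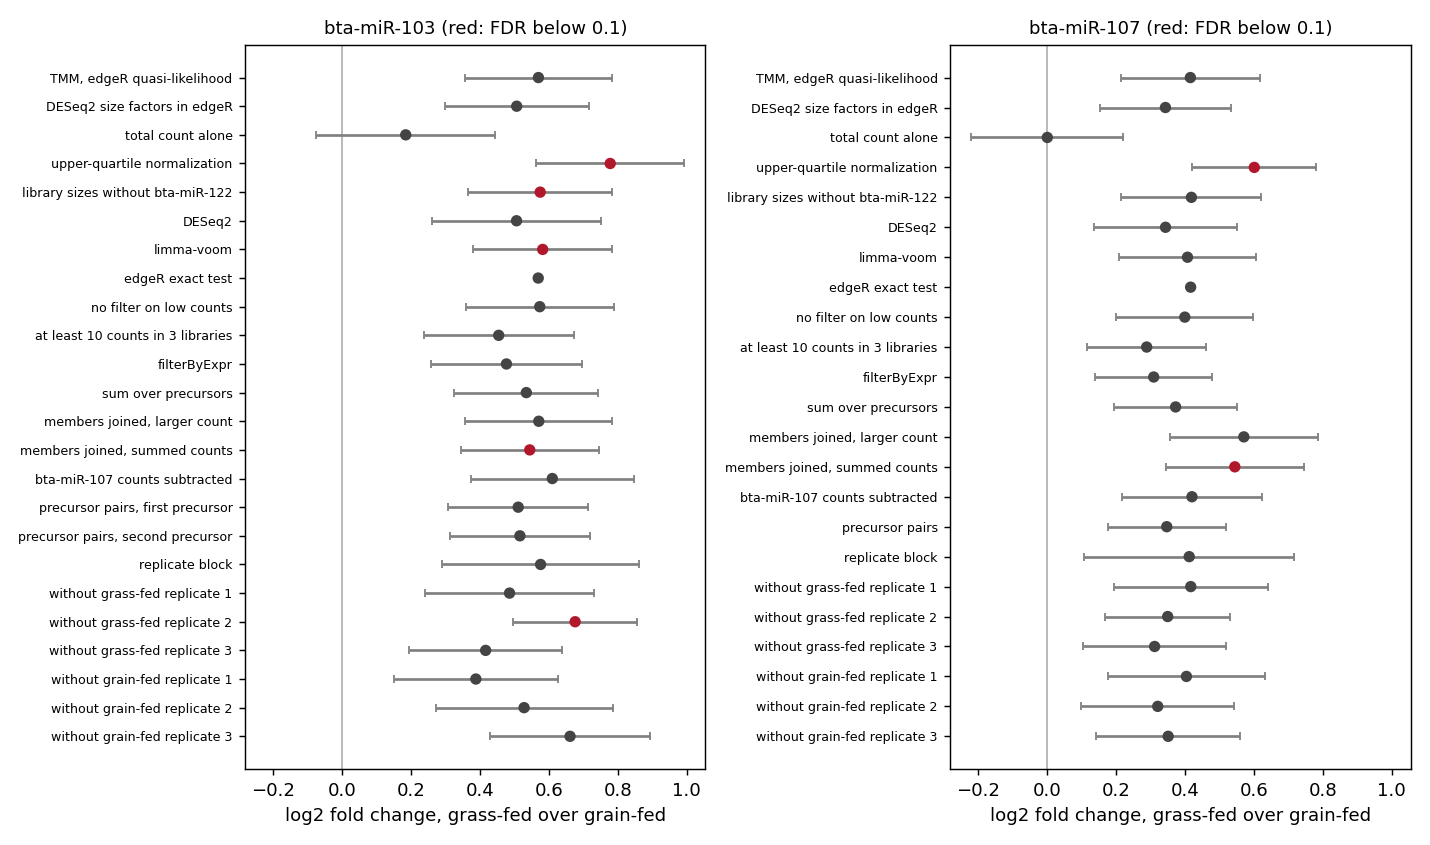
Log2 fold change, grass-fed over grain-fed, of bta-miR-103 (left) and bta-miR-107 (right) under each way of processing; bars are 1 standard error, which the edgeR exact test does not give, and red marks FDR below 0.1. All points of bta-miR-103 lie between 0.18 and 0.78, and bta-miR-107 falls to 0.0005 with total count alone. The points of the joined members are the same in both panels.

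The ratio of the 2 members needs no scaling. The share of bta-miR-107 in the counts of both was 13.6%, 18.9% and 14.4% with grass, against 21.1%, 16.1% and 14.4% with grain. The exact binomial intervals (Clopper-Pearson, 95%) were 13.1% to 14.1%, 18.2% to 19.5% and 13.8% to 14.97% with grass, and 19.4% to 22.8%, 14.5% to 17.9% and 12.7% to 16.2% with grain. Grass-fed replicate 2 and grain-fed replicate 1 had the highest shares of their groups, and the groups overlapped. These intervals cover counting error only and do not include the spread between animals. bta-miR-103 had 5.53 ± 1.09 counts for each count of bta-miR-107 with grass and 4.96 ± 1.12 with grain (mean ± SD, n = 3 per diet). The log2 ratio of bta-miR-107 to bta-miR-103 was -2.45 ± 0.30 with grass and -2.29 ± 0.34 with grain, a difference of -0.16 (exact permutation test, p = 0.5). Between single animals of the 2 groups the difference ran from -0.76 to 0.47 over 9 pairs. A difference between the diets in the balance of the 2 miRNAs was not detectable with these animals. Reads that fit both miRNAs may enter this ratio in unknown number.

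**Figure D3:**
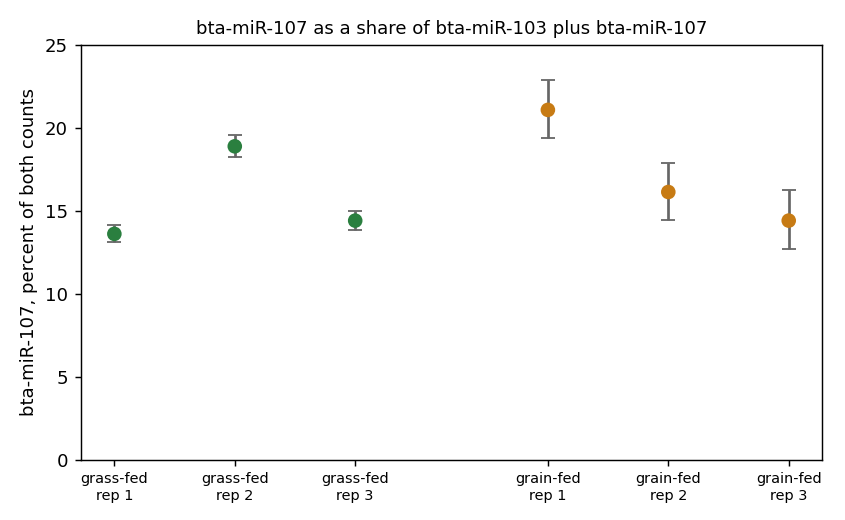
bta-miR-107 as a percent of the summed counts of bta-miR-103 and bta-miR-107 in each library, with exact binomial 95% intervals. The grass-fed animals lie between 13.6% and 18.9% and the grain-fed animals between 14.4% and 21.1%.

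Within the miR-15 and miR-107 group, bta-miR-103 was the most abundant miRNA in all 6 libraries. Its share of the summed counts of the 10 miRNAs of the group was 62.6%, 62.4% and 63.1% with grass, against 48.1%, 51.0% and 53.6% with grain. The grass-fed animals were close to each other, and all lay above the grain-fed animals. The mean share was 62.7% ± 0.363 with grass and 50.9% ± 2.75 with grain (mean ± SD, n = 3 per diet), 11.8 percentage points apart (exact permutation test, p = 0.1, the smallest that is possible). This measure needs no scaling of libraries and was chosen after the values were seen. The share of bta-miR-107 was 9.86%, 14.5% and 10.6% with grass and 12.8%, 9.81% and 9.01% with grain, and overlapped between groups (exact permutation test, p = 0.5). Both members together made up 74.4% ± 2.32 of the group with grass and 61.4% ± 0.980 with grain (mean ± SD, n = 3 per diet).

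**Figure D4:**
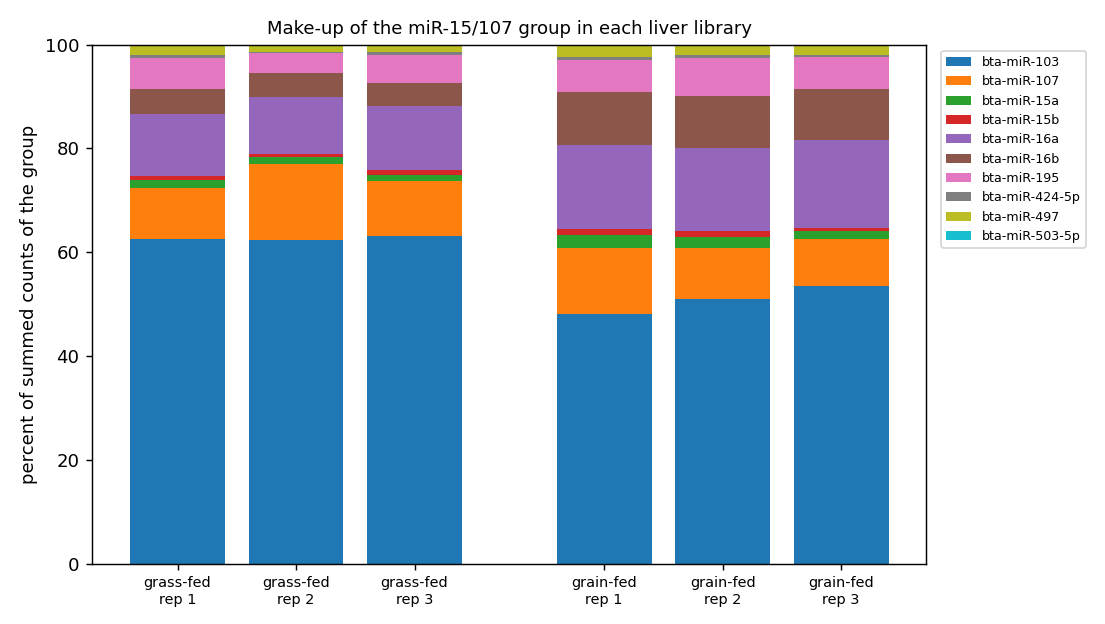
Make-up of the miR-15 and miR-107 group in each library, as stacked percents of the summed counts of its 10 miRNAs. The blue segment, bta-miR-103, reaches 62.4% to 63.1% in grass-fed and 48.1% to 53.6% in grain-fed animals. The purple and brown segments, bta-miR-16a and bta-miR-16b, are smaller in the grass-fed animals.

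The counterpart in the group was bta-miR-16b, which lies with bta-miR-15b in SMC4, a condensin gene, in the RefSeq table. After TMM scaling it had 254, 189 and 243 CPM with grass and 354, 430 and 444 CPM with grain. The groups did not overlap, and bta-miR-16b was lower in grass-fed liver at -0.83 on the log2 scale (SE 0.22, edgeR FDR = 0.0235). It was the only one of the 10 miRNAs to pass FDR 0.1 in this fit. bta-miR-16a, whose mature sequence is close to that of bta-miR-16b, averaged 578 ± 105 CPM with grass and 666 ± 98.5 CPM with grain, which is -0.20 on the log2 scale (edgeR FDR = 0.651). Reads that fit both cannot be given to either. When bta-miR-16b was left out of the group, the share of bta-miR-103 was still 65.4% to 66.1% in grass-fed and 53.5% to 59.4% in grain-fed liver.

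Of the other members of the group, bta-miR-15a, bta-miR-15b, bta-miR-195, bta-miR-424-5p and bta-miR-497 had log2 fold changes between -0.30 and 0.12, with FDR from 0.494 to 0.947 in edgeR. bta-miR-503-5p was scarce, with 5 to 13 counts in grass-fed and 4 to 5 counts in grain-fed libraries, and stood at -1.31 on the log2 scale (edgeR FDR = 0.181). The group as a whole thus had 0 miRNAs called higher and 1 called lower out of 10, against the 19.1% called among all miRNAs. Its median log2 fold change was -0.05, beside 0.13 over all miRNAs tested. bta-miR-103, bta-miR-107 and bta-miR-424-5p had a log2 fold change above 0 after TMM scaling, whereas with total count alone bta-miR-424-5p turned to -0.24 while the members were at 0.18 and 0.0005. With upper-quartile normalization 7 of the 10 were above 0, the median was 0.16 and 2 were called higher. Over all miRNAs that scaling had a median of 0.31 and called 82 of 456 higher. Without grass-fed replicate 2, 6 of the 10 were above 0, with a median of 0.14 and 1 called higher. Over all miRNAs the median was then 0.09, with 31 of 434 called higher. The summed level of the group was 4200 to 5406 CPM in grass-fed and 3469 to 4488 CPM in grain-fed liver, and the groups overlapped.

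**Figure D5:**
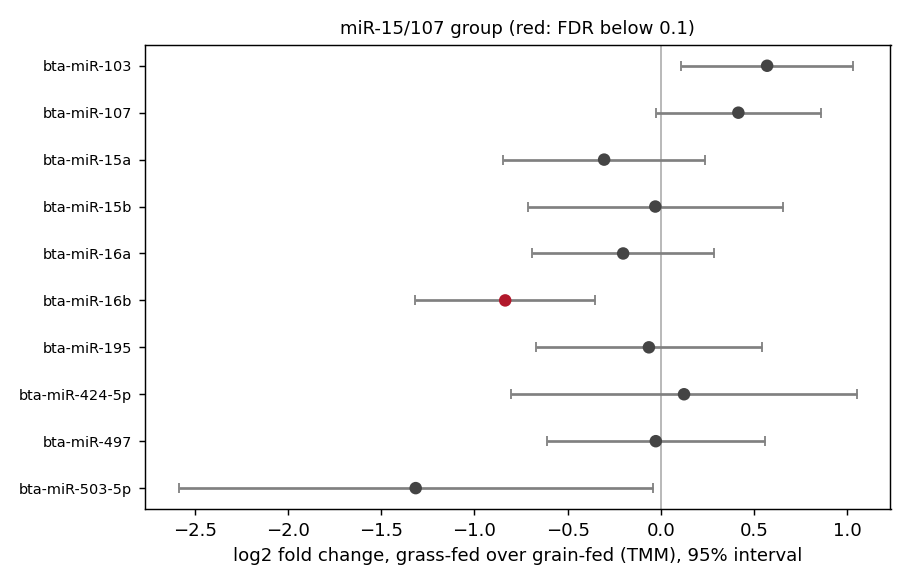
Log2 fold change, grass-fed over grain-fed, of the 10 miRNAs of the miR-15 and miR-107 group after TMM scaling, with 95% intervals of the edgeR fit; red marks FDR below 0.1. bta-miR-103 and bta-miR-107 lie at 0.57 and 0.42, and bta-miR-16b at -0.83.

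A list of 16 miRNAs studied in insulin and glucose metabolism, which leaves out the 2 members, was set beside them. Of these, 14 were tested, bta-miR-33b did not pass the filter on low counts and bta-miR-802 was not analysed here. In the grass-fed group 3 of 14 were higher and 0 lower at FDR 0.1, where 9.43% of all miRNAs were higher. The median log2 fold change of the list was 0.35, beside 0.13 over all miRNAs tested. The 3 were bta-miR-122, bta-miR-145 and bta-miR-320a, with log2 fold changes of 1.12, 1.09 and 0.89 and FDR of 0.00417, 0.00599 and 0.0183 in edgeR. Of these, bta-miR-122 is also among the hepatocyte markers above. bta-miR-145, which is transcribed with bta-miR-143 in smooth muscle and stellate cells, had 2644, 2865 and 1847 CPM with grass and 1309, 1160 and 981 CPM with grain, and the groups did not overlap. bta-miR-143, which in mice impairs insulin signalling in liver, had a log2 fold change of 0.33 (FDR = 0.271, edgeR). bta-miR-26a, known to improve insulin sensitivity in mouse liver, had -0.31 (FDR = 0.425, edgeR), and bta-miR-152 had 0.06 (FDR = 0.877, edgeR). With total count alone the list had 2 higher, bta-miR-122 and bta-miR-145, and 2 lower, bta-miR-26a and bta-miR-223. That scaling called 9 higher and 65 lower among all 456 miRNAs. The median log2 fold change was then -0.07 for the list and -0.29 over all miRNAs.

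In abundance, bta-miR-103 stood between bta-miR-140 and bta-miR-2484. bta-miR-140 averaged 3226 ± 386 CPM with grass and 2926 ± 365 CPM with grain, so with grass it lay within the spread of bta-miR-103 and with grain above it. bta-miR-2484 had 241 ± 28.8 CPM with grass and 4844 ± 111 CPM with grain, and only its mean over both groups was near that of bta-miR-103. bta-miR-107 stood between bta-miR-320a, with 670 ± 88.1 and 362 ± 66.7 CPM, and bta-miR-532, with 559 ± 170 and 380 ± 22.8 CPM (mean ± SD, n = 3 per diet, grass-fed first). In the grass-fed group bta-miR-532 and bta-miR-107 differed by less than their spread.

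The log2 CPM of the 2 members had a Pearson correlation of 0.61 over the 6 libraries, which share their scaling and the split by diet. Among 131 other miRNAs with at least 100 CPM, those most like bta-miR-103 were bta-miR-25 (r = 0.91), bta-miR-185 (0.90), bta-miR-19b (0.88), bta-miR-2285t (0.88) and bta-miR-125b (0.88). bta-miR-25 is processed from an intron of MCM7 in mammals, and bta-miR-185 is known for acting on genes of cholesterol metabolism in liver. Those most like bta-miR-107 were bta-let-7d (r = 0.97), bta-let-7a-5p (0.95), bta-miR-423-5p (0.94), bta-miR-122 (0.93) and bta-miR-92a (0.93). The 2 lists had 0 miRNAs in common, and whether the patterns of the members differ was not tested. bta-miR-185 and bta-miR-125b passed FDR 0.1 in edgeR, as did all 5 of the second list, with log2 fold changes from 0.66 to 1.43, where 19.1% of all miRNAs passed. These miRNAs were picked for their likeness to members whose values split by diet over the same 6 libraries, so these counts are a description. Grass-fed replicate 2, whose scaling factor was the lowest, had the highest level of bta-miR-107 and the lowest grass-fed level of bta-miR-103.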

How the data were processed

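Small RNA of 18 to 30 nt was sequenced from 6 livers. The authors checked reads with FastQC 0.11.5, removed adapters and low-quality reads, kept those of 17 to 25 nt, and used miRDeep2 with miRBase and the ARS-UCD1.2 assembly to count known miRNAs. The deposited counts are raw, 1 for each pair of miRNA and precursor. The deposited CPM divides them by the library's sum and was not used. Groups and replicate numbers come from the labels. The largest count over precursors was taken. Those with more than 2 counts in 2 or more libraries entered the quasi-likelihood test of edgeR 4.0.16 (R 4.3.3), TMM scaling, Benjamini-Hochberg adjustment and FDR 0.1. Log2 CPM used a prior count of 2. Intervals are at 95%. Single values had exact permutation tests (scipy 1.17.1). Libraries of a group differed by more than counting noise. Alternatives were other scalings, DESeq2 1.42.0, limma 3.58.1, the edgeR exact test, other filters, joined members and libraries left out. The members and lists were chosen with earlier results of these data known. Named miRNAs are the members, the miR-15/107 group, list miRNAs that were called or among the 4 most abundant, the 5 most correlated and the neighbours in level. bta-miR-223, other called markers and the miRNAs at a threshold were named after their values were seen.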

Additional observations from a re-analysis of the deposited data

How the results depend on the processing

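bta-miR-103 had a log2 fold change above 0 under all 23 alternatives and bta-miR-107 under all 22, from 0.18 to 0.78 and from 0.0005 to 0.60. Neither passed FDR 0.1 as reported. bta-miR-103 passed with upper-quartile normalization (0.78, FDR = 0.0332), library sizes without bta-miR-122 (0.57, FDR = 0.0927), limma-voom (0.58, FDR = 0.0745), the summed counts of both members (0.54, FDR = 0.0958) and without grass-fed replicate 2 (0.68, FDR = 0.0440). On its own counts bta-miR-107 passed only with upper-quartile normalization (0.60, FDR = 0.0434). The sum is 1 row for both members and is no call of bta-miR-107. With each library left out the ranges were 0.39 to 0.68 and 0.31 to 0.42. With the counts of bta-miR-107 subtracted, a choice made after seeing the data, bta-miR-103 had 0.61 (FDR = 0.121). With the replicate block the values were 0.58 (FDR = 0.204) and 0.41 (FDR = 0.447), and no list call changed in number. Same-numbered libraries had correlations of -0.05, -0.20 and -0.01, within the range of differently numbered ones, -0.21 to 0.23. With 3 libraries per group these values cannot exclude a pairing. The difference in the ratio of the members ran from -0.33 to 0.03 with each library left out, and reversed to 0.0277 without grain-fed replicate 1. The difference in the share of bta-miR-103 in its group ran from 9.21 to 14.2 percentage points over 10 alternatives. Group calls rose from 1 to 3 with upper-quartile normalization (2 higher, 1 lower) or limma-voom (1 higher, 2 lower). They were 2 (1 higher, 1 lower) with library sizes without bta-miR-122 or without grass-fed replicate 2, and 1 to 2 with each library left out. List calls rose from 3 to 5 with upper-quartile normalization (5 higher) or filterByExpr (4 higher, 1 lower). They were 4 with total count alone (2 higher, 2 lower) or at least 10 counts in 3 libraries (3 higher, 1 lower). They were 3 to 4 with each library left out, and 2 with library sizes without bta-miR-122, where that miRNA is not tested. Calls over all miRNAs moved from 87 of 456 to 124 with upper-quartile normalization, 94 with limma-voom and 96 of 316 with filterByExpr. They were 74 of 456 with total count alone and 86 of 317 with at least 10 counts in 3 libraries. They were 75 of 434 without grass-fed replicate 2, and 87 of 455 with library sizes without bta-miR-122. For the group and list calls limma-voom, the edgeR exact test, the filters and the sum over precursors were added after seeing the data. The causes were not tested. The grain-fed depth limits scarce miRNAs more than the 2 members.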
